A study of Mus musculus with 12 samples.

Results

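Fkbp5, Tsc22d3, Per1, Zbtb16, Sgk1, Cebpd, Angptl4, Fam107a, Klf9 and Dusp1 are 10 genes that rise in many tissues when glucocorticoid hormone is high. They were chosen by name, as commonly used readouts of the hormone, and all 10 are among the 35275 genes of the deposited count table. These genes and the other gene lists were chosen with earlier results of these data known. Shares of all genes set beside their counts are therefore description and not a test. The hormone, corticosterone in mice, enters the cell and binds the glucocorticoid receptor, which is held ready by Hsp90 and its co-chaperones. The loaded receptor moves to the nucleus and binds short palindromic DNA elements near its target genes. In the suckling intestine glucocorticoids are known to hasten the maturation of the epithelium, and several of these genes also answer other signals, among them the circadian clock and fatty acid receptors.

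The data are RNA-seq read counts from the ileum of C57BL/6 pups killed on postnatal day 14. Stressed pups were born to dams restrained in a ventilated tube 2 h daily between gestational days 7 and 19, and control pups to dams left in their home cages. Each of 3 stressed and 3 control dams gave 1 male and 1 female, so there are 4 groups of 3 pups and 12 libraries, and pup 1, 2 or 3 of a group names its dam within that condition. No transgene or deletion is named, the stress was applied to the mother and not to the pup, and no hormone level or time of day is given with the samples. The question the design puts is whether the stress of the mother left a difference in the offspring's ileum.

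The libraries held 16423523 to 22975526 gene-assigned reads, with less in males (16423523 to 20075567) than in females (20730243 to 22975526). Some libraries stood apart. Both pups of control dam 3 carried RNA typical of the upper small intestine. The fatty acid binding protein Fabp1 had 168 to 1404 CPM (counts scaled to library size) there and 0.151 to 0.638 CPM in the other 10 libraries, and the duodenal transcription factor Gata4 had 51.0 to 135 CPM against 0.329 to 4.06 CPM. The ileal bile acid binding protein Fabp6 was at 0.716 CPM in the male and 61.0 CPM in the female of that litter, with 29.9 to 608 CPM elsewhere. Slc10a2, of the same ileal and suckling enterocyte list, was at 0.195 and 1.97 CPM, with 1.67 to 6.43 CPM elsewhere. The sum over the 11 genes of that list went the other way. It was 12168 CPM in that male and 12114 CPM in that female, with 6453 to 8123 CPM elsewhere. Fcgrt, a gene of that list, had 4159 and 2045 CPM there and 377 to 903 CPM elsewhere. The list's median deviation from each gene's mean log2 level was -0.10 in that male, inside the range elsewhere (-0.26 to 0.11). In that female it was 0.31. Separately, the transcript Yam1 took 1.39%, 4.13% and 1.00% of the reads in stressed male 1, stressed male 3 and control male 1, and 0.171% to 0.4998% in the other 9 libraries. Differences between litters are given with and without control dam 3, and the members' medians and counts in males also without the 3 males rich in Yam1.

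The promoters of the members are shown because the receptor acts by binding DNA. Windows of 300 bases, 250 before a transcription start and 50 after it, were taken from RefSeq on GRCm38.p6, and 17 windows of 7 members were found: Sgk1, Per1, Fam107a, Dusp1, Fkbp5, Klf9 and Tsc22d3. Each was searched on both strands for GNACANNNTGTNC, the core of the glucocorticoid response element, for CACGTG, the E-box that clock factors bind, and for TGACGTCA, the cAMP response element. Matches are in capitals, and no 2 matches overlap in the windows printed. The Sgk1 window is chr10:21993640-21993939 on the plus strand, that of Fam107a is chr14:8309730-8310029 on the minus strand, that of Per1 is chr11:69098699-69098998 on the plus strand, that of Dusp1 is chr17:26508423-26508722 on the minus strand and that of Fkbp5 is chr17:28486100-28486399 on the minus strand.
Sgk1: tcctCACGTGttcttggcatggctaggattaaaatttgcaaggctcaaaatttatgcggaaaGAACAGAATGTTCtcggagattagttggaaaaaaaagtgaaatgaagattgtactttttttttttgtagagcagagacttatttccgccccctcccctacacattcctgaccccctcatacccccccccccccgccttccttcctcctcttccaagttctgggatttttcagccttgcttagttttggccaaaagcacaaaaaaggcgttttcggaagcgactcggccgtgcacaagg
Fam107a: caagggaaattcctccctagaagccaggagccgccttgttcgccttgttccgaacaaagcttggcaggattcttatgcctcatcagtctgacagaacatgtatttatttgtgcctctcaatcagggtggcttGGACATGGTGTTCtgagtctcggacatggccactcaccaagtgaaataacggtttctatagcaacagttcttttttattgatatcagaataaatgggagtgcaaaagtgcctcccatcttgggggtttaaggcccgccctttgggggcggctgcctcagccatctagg
Per1: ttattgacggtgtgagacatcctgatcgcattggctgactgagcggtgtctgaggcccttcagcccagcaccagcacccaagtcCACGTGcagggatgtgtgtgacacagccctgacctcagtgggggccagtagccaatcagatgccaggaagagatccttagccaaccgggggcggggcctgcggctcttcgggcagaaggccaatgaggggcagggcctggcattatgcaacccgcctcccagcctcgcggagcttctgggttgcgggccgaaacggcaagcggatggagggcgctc
Dusp1: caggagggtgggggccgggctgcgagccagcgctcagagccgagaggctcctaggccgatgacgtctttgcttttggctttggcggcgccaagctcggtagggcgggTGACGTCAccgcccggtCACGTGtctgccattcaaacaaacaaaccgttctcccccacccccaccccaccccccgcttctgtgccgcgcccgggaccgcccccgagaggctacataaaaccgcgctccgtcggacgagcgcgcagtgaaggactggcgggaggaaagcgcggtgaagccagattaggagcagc
Fkbp5: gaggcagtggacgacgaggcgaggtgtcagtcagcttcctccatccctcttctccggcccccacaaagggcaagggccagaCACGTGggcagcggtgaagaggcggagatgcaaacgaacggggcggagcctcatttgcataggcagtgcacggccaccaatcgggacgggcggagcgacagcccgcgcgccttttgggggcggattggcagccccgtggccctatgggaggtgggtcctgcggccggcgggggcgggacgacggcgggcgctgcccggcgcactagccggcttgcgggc

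The glucocorticoid element core stood in windows of 2 of the 7 members, which is 3 of their 17 windows. In Sgk1 it read GAACAGAATGTTC, with its first base 188 bases before the start, and in Fam107a it read GGACATGGTGTTC, 118 bases before the start; a second, overlapping window of Fam107a holds the same match. Of all 32851 windows, 0.475% hold this core. The E-box stood in 4 of the 17 windows, 1 each of Sgk1, Per1, Dusp1 and Fkbp5, and in 7.15% of all windows. The cAMP response element stood in 1 of the 17, the Dusp1 window, 143 bases before the start, and in 1.79% of all windows. A match describes the letters of the window and is not a measured binding site.

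All 10 members were detected in each of the 12 libraries, at levels that spanned a wide range per unit of transcript length (FPKM, fragments scaled to gene length and library size). Sgk1, a kinase that raises sodium uptake through the epithelial sodium channel and the sodium-proton exchanger NHE3, was highest at 37.1 ± 14.8 FPKM (mean ± SD, n = 12). Klf9, a zinc finger transcription factor, followed at 21.2 ± 3.34 FPKM, and Tsc22d3, whose product GILZ restrains NF-kB and AP-1, at 19.9 ± 10.3 FPKM. Per1, a clock repressor with direct control by the receptor, had 8.05 ± 2.95 FPKM, and Dusp1, a phosphatase that switches off MAP kinases, had 7.06 ± 1.35 FPKM. Cebpd, a transcription factor of the acute phase and of fat cell formation, had 6.77 ± 2.31 FPKM. Angptl4, a secreted inhibitor of lipoprotein lipase, stood at 3.33 ± 1.29 FPKM, and Fkbp5, the Hsp90 co-chaperone that lowers the receptor's affinity for hormone, at 3.31 ± 0.954 FPKM. Zbtb16, a zinc finger repressor, had 0.862 ± 0.699 FPKM and Fam107a, an actin-associated protein, 0.560 ± 0.177 FPKM.

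The order of these FPKM levels was firm at some steps and not at others. Tsc22d3 exceeded Per1, Cebpd exceeded Angptl4, and Fkbp5 exceeded Zbtb16 in all 12 libraries, and Sgk1 exceeded Klf9 in 11 of 12. Klf9 exceeded Tsc22d3 in 9 and Dusp1 exceeded Cebpd in 8. Per1 exceeded Dusp1 in 6 of 12 libraries, Angptl4 exceeded Fkbp5 in 7 and Zbtb16 exceeded Fam107a in 7, so these last neighbours did not differ beyond their spread. The lowest gene, Fam107a, had 19 to 56 reads per library, and Zbtb16 31 to 313. Cebpd is typed as a pseudogene 1180 bases long in the deposited table, at chr16:15887286-15888466, while GENCODE M21 lists it as protein-coding; 562 of its exon bases overlap Spidr on the opposite strand. For Dusp1, 11 exon bases overlap Ergic1 on the opposite strand. Both overlaps were counted on GENCODE M21 exons, which run to 15891031 for Cebpd and 26562128 for Dusp1. The deposited genes end earlier, at 15888466 and 26508519, so the overlaps need not apply to the counted exons. The sources do not state whether counting used strand, so reads of any bases shared in the counted exons cannot be told apart.

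**Figure D1:**
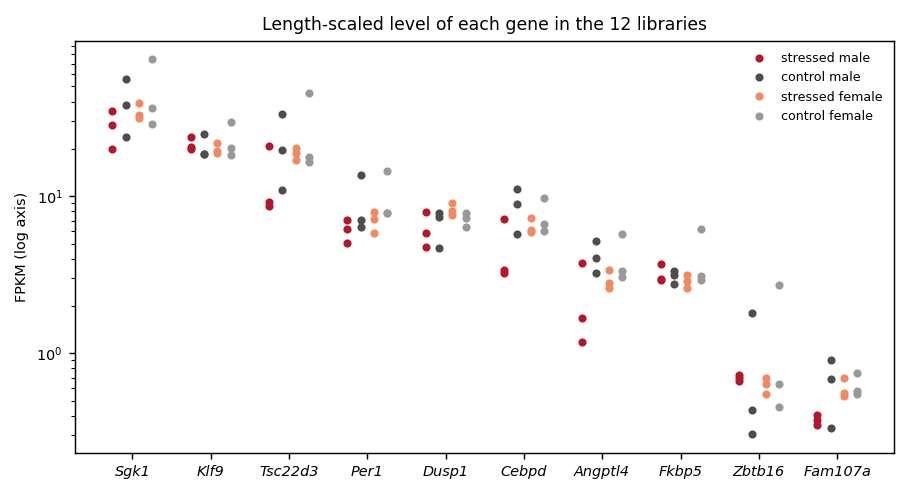
Level of each of the 10 genes in FPKM (logarithmic axis), 1 point per library coloured by group, in order of the mean over 12 libraries. Sgk1 averages 37.1 FPKM and Fam107a 0.560 FPKM, and the highest points of most genes belong to the pups of control dam 3.

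In the comparisons that follow, levels are CPM scaled by the trimmed mean of M-values, and a member's spread across pups is large beside the differences between groups. Among the genes that feed back on the receptor or damp inflammation, Fkbp5 (ENSMUSG00000024222, chr17:28399095-28517524, minus strand, GRCm38) had 11.5, 11.2 and 14.9 CPM in stressed males 1 to 3, against 12.9, 10.4 and 14.0 CPM in control males 1 to 3. In the females it had 11.5, 9.78 and 10.9 CPM in stressed females 1 to 3, against 11.3, 11.04 and 25.2 CPM in control females 1 to 3. Stressed and control pups overlapped in both sexes, and control female 3 was highest, at 2.23 times the median of the 10 libraries outside that litter; its brother stood at 1.24 times that median. Stressed male 3 was second, above the other 5 stressed pups.

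Tsc22d3 (ENSMUSG00000031431, chrX:140539528-140600659, minus strand) had 25.3, 58.2 and 27.4 CPM in stressed males 1 to 3, against 31.5, 55.7 and 109 CPM in control males 1 to 3. Its female values were 51.4, 57.1 and 47.9 CPM in stressed females 1 to 3, against 48.5, 46.3 and 137 CPM in control females 1 to 3. Both pups of control dam 3 were far above every other library, at 2.27 times (male) and 2.84 times (female) the median of the other 10, and stressed males 1 and 3 and control male 1 were the lowest of all 12. Dusp1 (ENSMUSG00000024190, chr17:26505590-26508519, minus strand) behaved otherwise. It had 11.1, 17.8 and 14.2 CPM in stressed males 1 to 3, against 18.1, 16.9 and 12.4 CPM in control males 1 to 3. In females it stood at 17.8, 17.2 and 20.4 CPM in stressed females 1 to 3, against 14.0, 16.5 and 18.9 CPM in control females 1 to 3. The Dusp1 groups overlapped in both sexes, and the pups of control dam 3 did not stand apart (0.730 and 1.11 times the median of the other 10).

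The kinase Sgk1 (ENSMUSG00000019970, chr10:21882184-21999903, plus strand) repeated the Tsc22d3 pattern at a higher level. Males had 63.0, 106 and 92.1 CPM in stressed males 1 to 3, against 74.1, 116 and 198 CPM in control males 1 to 3. Females had 115, 99.7 and 95.2 CPM in stressed females 1 to 3, against 107, 87.9 and 242 CPM in control females 1 to 3. The pups of control dam 3 again exceeded the other 10 libraries, at 2.04 times their median in the male and 2.48 times in the female, while the stressed and control pups of the other dams covered the same range.

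Of the transcription regulators, Per1 (ENSMUSG00000020893, chr11:69095217-69109960, plus strand) had 29.2, 32.1 and 24.6 CPM in stressed males 1 to 3, against 30.0, 32.5 and 72.9 CPM in control males 1 to 3. It reached 26.0, 35.9 and 32.5 CPM in stressed females 1 to 3, against 34.7, 35.8 and 71.1 CPM in control females 1 to 3. Apart from the pups of control dam 3, which were alike at 72.9 and 71.1 CPM, all values lay between 24.6 and 35.9 CPM. Klf9 (ENSMUSG00000033863, chr19:23141226-23166911, plus strand) varied least of the 10, by 1.80-fold from the lowest to the highest library. It measured 68.2, 75.5 and 67.9 CPM in stressed males 1 to 3, against 60.8, 59.1 and 92.2 CPM in control males 1 to 3. The females measured 59.7, 69.2 and 60.3 CPM in stressed females 1 to 3, against 56.2, 65.2 and 101.1 CPM in control females 1 to 3. Klf9 was highest in the pups of control dam 3 too, at 1.46 and 1.61 times the median of the others.

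Cebpd had 4.03, 8.20 and 4.002 CPM in stressed males 1 to 3, against 6.80, 10.3 and 14.9 CPM in control males 1 to 3. Its levels in females were 6.82, 8.33 and 6.82 CPM in stressed females 1 to 3, against 7.44, 6.98 and 12.1 CPM in control females 1 to 3. Stressed males 1 and 3 were the lowest libraries for Cebpd, and control male 3 and control female 3 the highest. Zbtb16 (ENSMUSG00000066687, chr9:48654311-48835945, minus strand) varied most, by 9.56-fold between libraries. Counts gave 3.78, 3.29 and 3.68 CPM in stressed males 1 to 3, against 9.23, 1.53 and 2.54 CPM in control males 1 to 3. In the other sex they gave 3.34, 2.73 and 3.18 CPM in stressed females 1 to 3, against 2.18, 3.162 and 14.7 CPM in control females 1 to 3. The stressed pups were nearly equal in Zbtb16, at 2.73 to 3.78 CPM, while control pups ran from 1.53 to 14.7 CPM; the high libraries were control female 3 and control male 1, and control male 3 was among the low ones.

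The secreted protein gene Angptl4 (ENSMUSG00000002289, chr17:33773750-33781575, minus strand) had 3.62, 11.1 and 5.34 CPM in stressed males 1 to 3, against 12.3, 9.79 and 18.1 CPM in control males 1 to 3. Female pups had 9.85, 7.71 and 8.30 CPM in stressed females 1 to 3, against 9.66, 9.11 and 18.5 CPM in control females 1 to 3. Stressed males 1 and 3 were the lowest and the pups of control dam 3 the highest, with the remaining 8 libraries between 7.71 and 12.3 CPM. Fam107a (ENSMUSG00000021750, chr14:8296274-8318023, minus strand) had 1.36, 1.23 and 1.21 CPM in stressed males 1 to 3, against 3.02, 1.09 and 2.60 CPM in control males 1 to 3. In females the values were 1.69, 1.81 and 2.26 CPM in stressed females 1 to 3, against 1.73, 1.89 and 2.62 CPM in control females 1 to 3. The 3 stressed males lay within 1.21 to 1.36 CPM, inside the range of the control males, and the female groups overlapped.

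**Figure D2:**
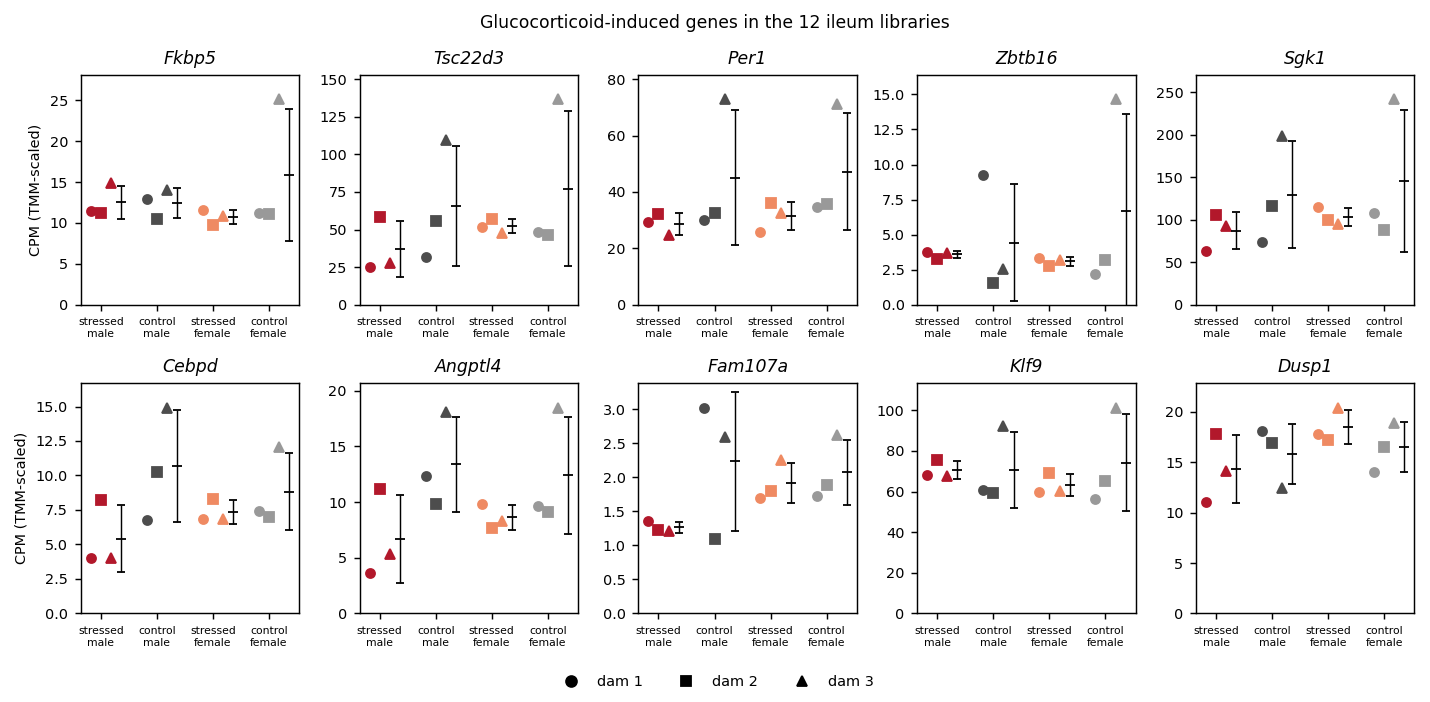
TMM-scaled CPM of each of the 10 genes, 1 panel per gene with its own linear axis from 0 and 1 point per library, with shapes for the dams and bars for the mean ± SD of the 3 pups; within each sex stressed pups are left of control pups. The pups of control dam 3 lie above the other 10 libraries for Tsc22d3, Per1, Sgk1, Cebpd, Angptl4 and Klf9, and control female 3 is also highest for Fkbp5 and Zbtb16.

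With the dam as the replicate, 9 of the 10 members had a lower fitted level in the litters of stressed dams than in those of control dams, and none passed the test. The counts of the 2 littermates were summed, 3 stressed litters were set against 3 control litters, and edgeR's quasi-likelihood test with Benjamini-Hochberg adjustment over 16749 genes called 0 of 10 members at an adjusted p under 0.05 (0% of all genes). The members' median log2 fold change was -0.57; the median over all genes was 0.00, with 48.7% of genes below 0. At an unadjusted p under 0.05 there was 1 member, Angptl4, against 1.36% of all genes. DESeq2 called 0 after adjustment and had 3 at an unadjusted p under 0.05, against 229 of 16749 genes. The numbers by limma-voom were 0 and 1, against 202 of 16749 genes at an unadjusted p under 0.05. Angptl4 was also the 1 member whose stressed litters all lay below the control litters, which held for 3.18% of all genes.

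Angptl4 averaged 7.78 ± 1.44 CPM in stressed litters and 12.9 ± 4.69 CPM in control litters (SD, n = 3 each). On the log2 scale the difference was -0.73 ± 0.26 (SE; edgeR unadjusted p = 0.0270, adjusted p = 1.00). The lowest control litter, at 9.59 CPM, was barely above the highest stressed litter, at 9.44 CPM. Zbtb16 had the largest fitted difference with all litters, -0.80 ± 0.44, but -0.21 ± 0.30 without control dam 3, with 3.30 ± 0.244 CPM in stressed litters and 5.75 ± 3.61 CPM in control litters. Tsc22d3 averaged 45.4 ± 11.2 CPM in stressed and 72.7 ± 45.6 CPM in control litters, where the control litters read 41.4, 51.7 and 125 CPM. Its log2 fold change was -0.68 ± 0.41. Leaving out 1 litter at a time, the number of members at an unadjusted p under 0.05 by edgeR was 0 without control dam 3, stressed dam 1 or stressed dam 3, 2 without stressed dam 2, 4 without control dam 2 and 5 without control dam 1. Over all genes, in the same order, it was 181 of 17034, 74 of 16976 and 153 of 17033. It was then 631 of 16985, 478 of 17027 and 1230 of 16970, so the share of all genes also changed with the litter left out.

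The remaining log2 fold changes between litters were -0.62 ± 0.30 for Per1, -0.58 ± 0.27 for Cebpd, -0.55 ± 0.32 for Sgk1, -0.40 ± 0.24 for Fam107a, -0.33 ± 0.24 for Fkbp5, -0.14 ± 0.19 for Klf9 and 0.03 ± 0.11 for Dusp1 (± SE). Every adjusted p from edgeR was 1.00. Because the samples are whole tissue, fewer cells that express a gene and less RNA of it per cell cannot be told apart in any of these differences. In the authors' deposited table the log2 fold change of stress against no stress is -0.43 for Angptl4 (unadjusted p = 0.00636), -0.39 for Per1 (0.0110), -0.38 for Cebpd (0.0160), -0.32 for Tsc22d3 (0.0471) and -0.31 for Sgk1 (0.0494), which are the 5 members with an unadjusted p under 0.05 there, and 0.01 for Dusp1 (0.925). The adjusted p in the authors' deposited table is 1.00 for each, and the sources do not state whether littermates were combined for it. How many of all genes had an unadjusted p under 0.05 there was not counted, so the 5 members have no share to be set against.

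In males, 0 of 10 members passed edgeR's test (0% of 16102 genes), 9 lay below 0 against 48.3% of all genes, and the members' median log2 fold change was -0.61. At an unadjusted p under 0.05 there were 3 members, Cebpd, Angptl4 and Fam107a, all lower in stressed males, where 6.38% of all genes passed in either direction and 2.71% were lower. DESeq2 also had 3, against 1136 of 16102 genes, and limma-voom 2, against 868 of 16102. Neither called a member after adjustment. Cebpd differed by -0.97 ± 0.35, Angptl4 by -0.99 ± 0.40 and Fam107a by -0.81 ± 0.35 (log2 ± SE, edgeR adjusted p = 0.752 for each). For Tsc22d3 the value was -0.82 ± 0.51, for Per1 -0.65 ± 0.35, for Sgk1 -0.57 ± 0.40, for Zbtb16 -0.31 ± 0.72 and for Dusp1 -0.14 ± 0.20. Fkbp5, at 0.01 ± 0.29, and Klf9, at -0.0031 ± 0.22, had fitted differences close to 0. Without control male 3, Tsc22d3 stood at -0.24, Per1 at -0.13, Sgk1 at -0.13, Cebpd at -0.66 and Angptl4 at -0.72 (log2), and 0 members had an unadjusted p under 0.05. That number was also 0 without stressed male 1 or stressed male 3, and 3 or 4 without any of the others. Over all genes it was 967 of 16386 without control male 3. It was 414 of 16394 without stressed male 1 and 330 of 16335 without stressed male 3. Without stressed male 2 it rose to 3388 of 16389, without control male 1 to 2322 of 16319 and without control male 2 to 1396 of 16399. Without stressed male 2 the fold changes were -1.34 for Tsc22d3 and -1.60 for Angptl4, and without control male 1 they were -0.85 for Sgk1 and -0.52 for Fam107a. No member's male groups were free of overlap, against 2.95% of all genes with every stressed male below every control male.

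In females, again 0 of 10 members passed (0% of genes) and 9 lay below 0, against 51.5% of all genes, with a median of -0.51. None had an unadjusted p under 0.05 by edgeR, DESeq2 or limma-voom, where edgeR gave 0.298% of all genes, and no member's stressed females all lay below its control females (2.49% of all genes). Leaving out 1 female at a time, the members at an unadjusted p under 0.05 by edgeR numbered 2 without control female 1, 1 without control female 2 and 0 without any other. Over all genes the number was 152 of 16283 without control female 1 and 68 of 16307 without control female 2. It was 30 to 69 genes without any other. The fitted differences were led by Zbtb16 at -1.11 ± 0.71, Per1 at -0.58 ± 0.35, Tsc22d3 at -0.57 ± 0.50 and Fkbp5 at -0.56 ± 0.29 (log2 ± SE). Angptl4 stood at -0.52 ± 0.40, Sgk1 at -0.49 ± 0.40 and Dusp1 at 0.16 ± 0.20. For Tsc22d3 the 3 stressed females had 51.4, 57.1 and 47.9 CPM and control females 1 and 2 had 48.5 and 46.3 CPM, so the fitted difference lay in control female 3.

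Whether the stress difference itself differed between the sexes was tested directly, and 0 of 10 members passed by edgeR and 7 lay below 0 (0% and 50% of genes; 0 members at an unadjusted p under 0.05 by edgeR, DESeq2 or limma-voom, against 2.15% of all genes by edgeR). The widest gaps, as male minus female log2 fold change, were 0.80 ± 1.00 for Zbtb16, -0.70 ± 0.49 for Cebpd, -0.70 ± 0.49 for Fam107a and 0.57 ± 0.41 for Fkbp5 (edgeR adjusted p = 0.999 for each). Without both pups of control dam 3 the gap of Zbtb16 lay on the other side of 0, at -0.79 ± 0.78, and that of Fkbp5 was 0.16 ± 0.26, while Cebpd gave -0.67 ± 0.45 and Fam107a -0.77 ± 0.55. The members' median was -0.17, against -0.47 without both pups of control dam 3 and 0.09, with 4 below 0, without the 3 males rich in Yam1. Males against females over both conditions gave 0 of 10 members after adjustment, where 0.0497% of genes passed, and 0 at an unadjusted p under 0.05 by edgeR, DESeq2 or limma-voom, against 12% of genes by edgeR. Here 9 members lay below 0 and 50.6% of all genes did, with member values from -0.37 ± 0.36 for Tsc22d3 to 0.05 ± 0.16 for Klf9. Without the Yam1-rich males 4 lay below 0 and the median was 0.08 in place of -0.15. Littermates were not paired in these fits.

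**Figure D3:**
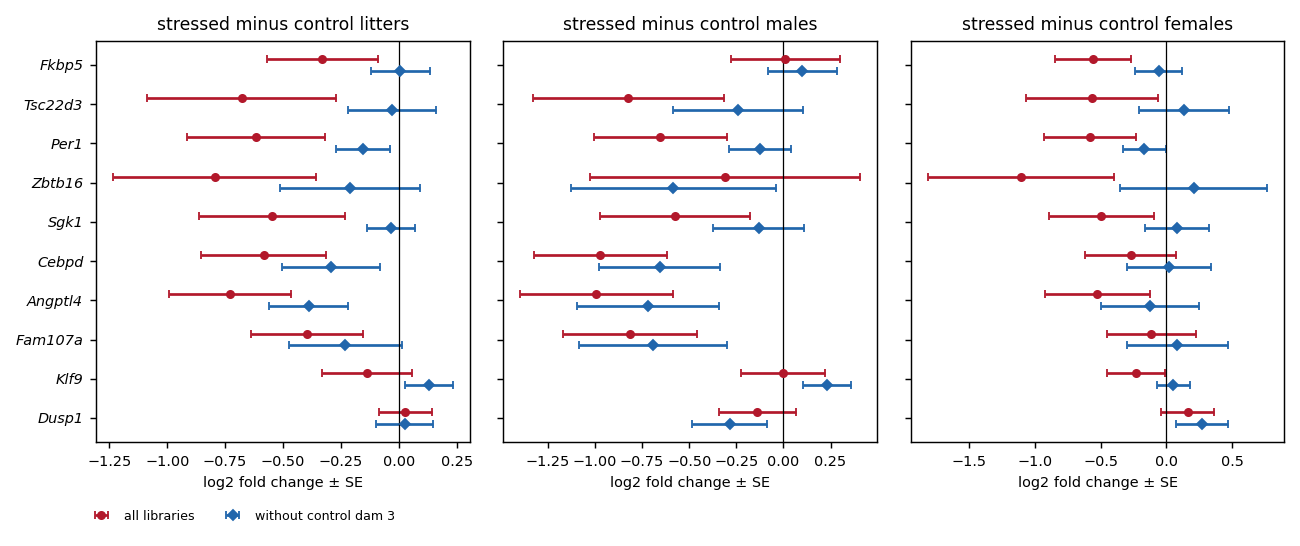
Log2 fold change (stressed minus control, ± SE) of each of the 10 genes between litters, males and females, from all libraries (circles) and without control dam 3 (diamonds). With all libraries 9 of 10 genes lie below 0 in each panel, without that dam 7, 8 and 3 do, and none passed edgeR's test at an adjusted p under 0.05. Of all genes, 48.7%, 48.3% and 51.5% lay below 0, and without that dam 48.4%, 47.9% and 50.7% did.

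The members' median differences depended on 1 control litter, in males less than between litters and in females. Without both pups of control dam 3, the members' median log2 fold change between litters was -0.10, with 7 of 10 below 0 (48.4% of all genes), in place of -0.57. In males it was -0.26 with 8 below 0 (47.9% of all genes), and in females 0.07 with 3 below 0 (50.7%). Tsc22d3 then differed between litters by -0.03 ± 0.19, Sgk1 by -0.03 ± 0.10 and Per1 by -0.16 ± 0.12 (log2 ± SE). Angptl4 differed by -0.39 ± 0.17, with an unadjusted p of 0.0511 in place of 0.0270, so no member had one under 0.05. Cebpd stood at -0.29 ± 0.21, Fam107a at -0.23 ± 0.24, Zbtb16 at -0.21 ± 0.30 and Dusp1 at 0.02 ± 0.12, while Fkbp5 stood at 0.0051 ± 0.13 and Klf9 at 0.13 ± 0.10. In females without that litter Tsc22d3 differed by 0.13 ± 0.34 and Zbtb16 by 0.21 ± 0.56, on the other side of 0. In males without it, Angptl4 stood at -0.72 ± 0.38, Fam107a at -0.69 ± 0.39 and Cebpd at -0.66 ± 0.32. Zbtb16, at -0.58 ± 0.54, and Dusp1, at -0.29 ± 0.20, lay further from 0 than with all males. Tsc22d3 gave -0.24 ± 0.34, Per1 -0.13 ± 0.16, Sgk1 -0.13 ± 0.24, Fkbp5 0.10 ± 0.18 and Klf9 0.23 ± 0.13.

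The pups of control dam 3 were a male and a female that both stood above all other 10 libraries for 6 of the 10 members (Tsc22d3, Per1, Sgk1, Cebpd, Angptl4 and Klf9), which 9.85% of all genes did. Control female 3 was the highest of 12 libraries for 6 members (11.5% of all genes), and control male 3 the highest of the 6 males for 6 (21.4%). The median deviation of the members from each gene's mean log2 level over the 12 libraries was 0.65 in control male 3 and 0.95 in control female 3, against -0.41 to 0.04 in the other 10 libraries. Fkbp5 and Zbtb16 separated these littermates: control female 3 was at 2.23 and 4.53 times the median of the other 10 libraries, and control male 3 at 1.24 and 0.78 times.

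The same order was counted in the other gene lists, against the 9.85% of all genes that showed it. Of 28 further known targets, 11 were above the other 10 libraries in both (Pdk4, Sesn1, Cdkn1a, Bcl6, Map3k6, Txnip, Lcn2, Sult1a1, Cd163, Slc9a3 and Scnn1a), and these include Scnn1a and Slc9a3, the sodium channel subunit and exchanger whose proteins Sgk1 acts on. The same held for 6 of 9 upper intestinal genes (Fabp1, Gata4, Lct, Ada, Adh1 and Rbp2) and for the 3 tested genes of the exocrine pancreas (Ctrb1, Clps and Cela1). The pancreas list has 8 genes, and only these 3 passed the filter on low counts. Of the 8, 5 had 0 reads in control male 3 and 4 had 0 reads in control female 3. Ctrb1 was at 17.4 and 12.2 CPM in that litter and at 0.651 CPM or less elsewhere. The summed level of the upper intestine list ran from 1176 to 1681 CPM in stressed pups and from 1209 to 1674 CPM in the pups of control dams 1 and 2, and stood at 9787 CPM (male) and 4395 CPM (female) in the litter of control dam 3. None of its 9 genes was at 0 in any library. The count was 3 of 11 for ileal and suckling enterocyte genes and 3 of 7 for macrophage genes. Lists nearer the 9.85% of all genes were endothelium (2 of 10) and receptor chaperones and co-chaperones (2 of 10). So were targets of the fatty acid receptors PPAR (2 of 11) and immediate early genes (2 of 16). Adipocytes (1 of 8) and genes that glucocorticoids repress (1 of 9) were also nearer it. The order was found for none of the smooth muscle, fibroblast, neuron and glia or lymphocyte genes. The upper intestine list and the members were both high in these 2 pups. The sum of that list was higher in the male. The members summed to 537 CPM in the male and 642 CPM in the female. Among the members, Per1 (72.9 and 71.1 CPM) and Cebpd (14.9 and 12.1 CPM) were higher in the male than in the female. The part of upper intestinal RNA in the members' levels was not tested.

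**Figure D4:**
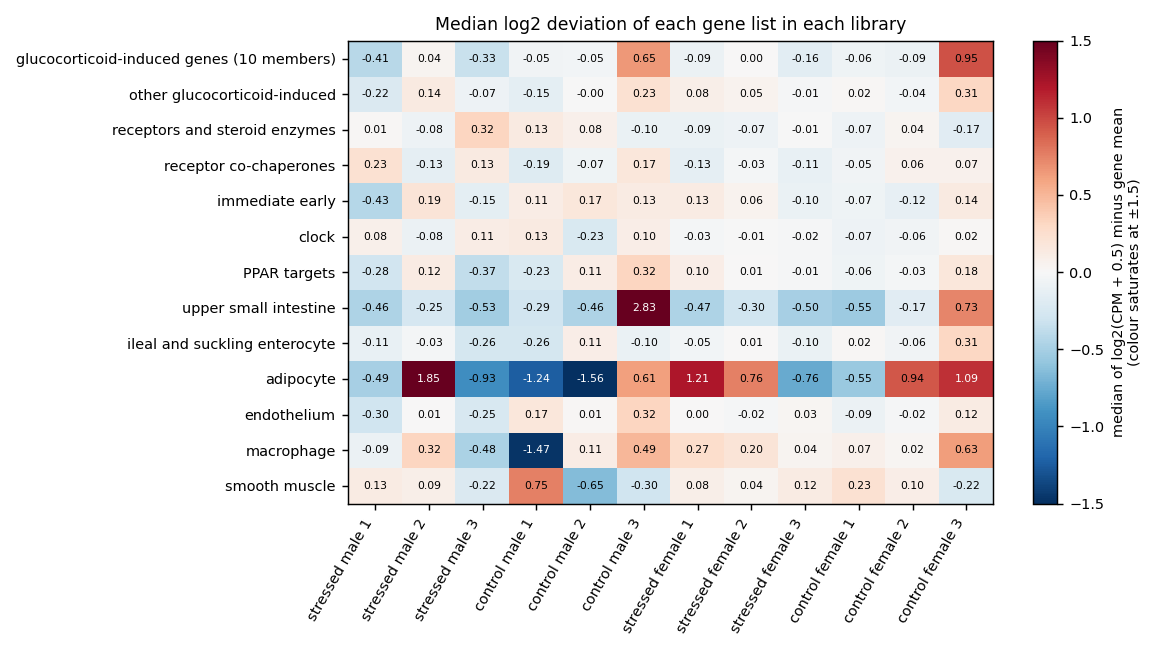
Heat map of the median log2 deviation of each gene list (rows) in each library (columns, with stressed pups left of control pups within each sex), taken from every gene's own mean over the 12 libraries; red is above and blue below that mean, and the colour saturates at 1.5. The 10 genes reach 0.65 in control male 3 and 0.95 in control female 3, where the upper small intestine list reaches 2.83 and 0.73.

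The lowest library was a male for 8 of the 10 members, stressed female 2 for Fkbp5 and control female 1 for Klf9. For how many of all genes the lowest library was a male was not counted, so the 8 of 10 cannot be read as particular to the members. Stressed male 1, stressed male 3 and control male 1, the males with the most Yam1 reads, were the 3 lowest of the 6 males for Tsc22d3, Per1, Sgk1 and Cebpd, which is 4 of 10 members against 16.6% of all genes. The same order held for 8 of 11 PPAR targets, 2 of the 3 tested exocrine pancreas genes, 4 of 7 macrophage genes, 4 of 9 upper small intestine genes and 9 of the 28 further glucocorticoid targets. It held for 2 of 9 repressed genes, 2 of 10 receptor chaperones and co-chaperones, and 2 of 11 ileal and suckling enterocyte genes. It also held for 3 of 16 immediate early genes, and for at most 1 gene in each other list. Without these 3 males the members' median male difference was -0.41, with 8 below 0; that fit leaves 1 stressed male, whose spread is taken from the other groups. Adipocyte genes summed to 90.1 to 346 CPM in stressed males and 129 to 215 CPM in control males, and their part, like that of Yam1-rich RNA, was not tested.

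Genes that set hormone supply and reception did not pass in any comparison by edgeR, and none had an unadjusted p under 0.05 between litters. No gene of the table at all was called in the 4 comparisons on stress by edgeR, DESeq2 or limma-voom. The glucocorticoid receptor Nr3c1 had 300.5, 211 and 354 CPM in stressed males and 231, 210.0 and 279.8 CPM in control males, and in females 185, 225 and 223 CPM (stressed) and 201, 244 and 202 CPM (control), with a log2 fold change between litters of 0.11 ± 0.11. For the mineralocorticoid receptor Nr3c2 it was -0.09 ± 0.10, for Hsd11b1, which regenerates active hormone, -0.51 ± 0.29, and for Hsd11b2, which inactivates it, 0.25 ± 0.28; Star, which brings cholesterol to steroid synthesis, gave -0.28 ± 0.21. Without control dam 3 these 5 gave Nr3c1 0.14 ± 0.12, Nr3c2 -0.05 ± 0.11, Hsd11b1 -0.30 ± 0.29, Hsd11b2 0.05 ± 0.24 and Star -0.09 ± 0.20. Of 9 genes of this kind, 8 were tested, 4 lay below 0 (5 without control dam 3), and none was above the other 10 libraries in both pups of control dam 3. The Hsp90 genes and other receptor chaperones and co-chaperones had 6 of 10 below 0, with a median of -0.03. Of all genes, 48.7% lay below 0. Without control dam 3 this list had 3 of 10 below 0 and a median of 0.02. Dnaja1 gave -0.23 ± 0.15, Hspa8 -0.15 ± 0.13 and Fkbp4 -0.12 ± 0.11, and without that litter Dnaja1 -0.04 ± 0.10, Hspa8 -0.03 ± 0.11 and Fkbp4 -0.03 ± 0.11.

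Among the 28 further glucocorticoid-induced genes none passed in any comparison by edgeR and 18 lay below 0 between litters (48.7% of all genes), with a median log2 fold change of -0.11, closer to that of all genes (0.00) than the members' -0.57. At an unadjusted p under 0.05 there was 1 of 28, Lcn2, against 1.36% of all genes. It gave -1.002 ± 0.43 (log2 ± SE, edgeR unadjusted p = 0.0499) at a low level, 0.381 to 3.58 CPM in the 12 libraries. Slc9a3 gave -2.06 ± 0.96, with 86.4 and 44.8 CPM in control male 3 and control female 3 and 1.35 to 8.54 CPM elsewhere, and Rgs2, a brake on G protein signals, gave 0.24 ± 0.12. Without control dam 3, 12 of the 28 lay below 0 and the median was 0.06, with Lcn2 -0.49 ± 0.33, Slc9a3 0.05 ± 0.33 and Rgs2 0.14 ± 0.09. In females the list's median was -0.06 and in males -0.13.

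The lists that share signals with the members did not pass either. Among them and the receptor chaperones the clock gene Npas2 was the 1 gene with an unadjusted p under 0.05 by edgeR between all litters. The counts below 0 that follow stand against 48.7% of all genes, or 48.4% without control dam 3. Of 9 tested genes that glucocorticoids repress, 6 lay below 0 between litters with a median of -0.09, and 3 with a median of 0.02 without control dam 3. Tnf gave -0.78 ± 0.43, the chemokine Ccl20 -0.63 ± 0.41 and Mmp9 -0.41 ± 0.37, and without that litter Tnf -1.03 ± 0.40, Ccl20 -0.36 ± 0.40 and Mmp9 0.20 ± 0.15. Without it the unadjusted p of Tnf by edgeR was 0.0349, but Tnf was near the floor, at 0 to 1.38 CPM in the 12 libraries. Of 15 clock genes, 6 lay below 0 with a median of 0.03, and 6 with a median of 0.02 without control dam 3. Npas2 gave -0.26 ± 0.10, Dbp 0.19 ± 0.13 and Per3 0.18 ± 0.12, and without that litter Npas2 -0.17 ± 0.09 (edgeR unadjusted p = 0.0869), Dbp 0.24 ± 0.14 and Per3 0.16 ± 0.13.

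Per1 belongs to the clock as well, and the ranks of the 15 other clock genes in the pups of control dam 3 were read beside it. Arntl was above the other 10 libraries in both pups (1 of 15, against 9.85% of all genes). Control male 3 was the highest of the 6 males for Arntl, Nr1d1, Nr1d2 and Dbp (4 of 15, against 21.4%), and control female 3 the highest of 12 libraries for Per2 and Cry1 (2 of 15, against 11.5%). The part of the clock in the Per1 level was not tested.

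Of 16 immediate early genes, 12 lay below 0 between litters with a median of -0.09, and 10 with a median of -0.05 without control dam 3. Fos gave -1.42 ± 0.67, Atf3 -0.71 ± 0.33 and Jun -0.17 ± 0.08, and without that litter Fos -0.27 ± 0.34, Atf3 -0.30 ± 0.23 and Jun -0.17 ± 0.10. Of 11 tested PPAR targets, a group to which Angptl4 also belongs, 10 lay below 0 with a median of -0.06, where 48.7% of all genes lay below 0. Without control dam 3 the direction turned, with 3 of 11 below 0 and a median of 0.03. Vnn1 gave -1.45 ± 0.71 with all litters, at 99.1 and 54.8 CPM in control male 3 and control female 3 and 8.39 to 17.3 CPM elsewhere, and 0.0032 ± 0.20 without that litter; Acaa1a gave -0.25 ± 0.15 and -0.10 ± 0.13 without it.

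Likeness of pattern was measured as the mean absolute difference in rank over the 12 libraries, for 14510 genes; the median gene differed from the member by 4 ranks. Tsc22d3 was closest among the members to Cebpd (1.17 ranks), Sgk1 (1.33) and Angptl4 (1.5). Outside the members its nearest genes were Prap1 (0.167), Igfbp3 (0.333), Agpat9 (0.333), Oaz1 (0.333) and 1700016C15Rik (0.5). For Fkbp5 the nearest were Casp4 (1.17), Sh2d2a (1.33), Aida (1.33), Tbrg1 (1.5) and Rmdn1 (1.5). All pairs share the libraries, their depth and the RNA that set the pups of control dam 3 apart, so these ranks are a description of the 12 libraries.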

How the data were processed

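Ileum RNA of 12 pups was sequenced. The authors deposited raw read counts per gene and FPKM values computed from them; FPKM equalled count divided by length and library total in each of 240813 nonzero values. The authors' comparison table gives log2 fold changes and p-values, unadjusted and adjusted, per the file headers. Per the submitters' processing notes, TopHat, STAR 2.5, HTSeq 0.6.1, DESeq2 and edgeR 3.16.5 were used with GRCm38 (mm10); the annotation release and the use of strand in counting are not given in the sources used here. Tables that repeat these values and the authors' group means were not used.

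Counts were analysed in R 4.3.3 with edgeR 4.0.16 (filterByExpr defaults, TMM scaling, quasi-likelihood F test, Benjamini-Hochberg over all genes tested, threshold 0.05), with limma 3.58.1 and DESeq2 1.42.0 as alternatives; the pipeline was tested on simulated data. Standard errors are the log2 fold change divided by the square root of F. Littermates were summed for the litter comparison. The other 4 comparisons came from 1 fit of the 4 groups, in which littermates were not paired. Replicates differed by more than sampling noise (chi-square per degree of freedom 8.17 to 177). Deviations of log2 CPM from a gene's mean used a pseudocount of 0.5. Library totals limit the precision of low genes; no interval for counting error alone is given. An exact test of 3 against 3 cannot give a p under 0.1.

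Littermates are paired by their dam. The numbers 1 to 3 name dams within a condition and give no pairing across conditions; deviations of same-numbered stressed and control pups correlated from -0.415 to 0.385. The 10 genes and the 17 other gene lists were chosen with earlier results of these data known. All 10 are named; from each pathway list the text names the 3 genes with the smallest unadjusted p between litters (receptor and hormone enzyme genes always), as none passed; the same 3 of each cell type list are given with the other observations. Of the genes this rule names, 2 are not reported here. For Fkbp5 and Tsc22d3 the 5 genes of closest rank with a mean of at least 1 CPM are named. Other settings tried were DESeq2's size factors, no filter and a filter of 1 CPM, limma on log2(FPKM + 1) and log2(FPKM + 0.1), a replicate block, each sex alone, pups in place of litters, leaving out each pup or dam, and leaving out the libraries that stood apart.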

Additional observations from a re-analysis of the deposited data

Results flagged for a closer look

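Fkbp5 was flagged in both conditions because 1 pup lay far from the other 5. Stressed male 3 was the highest of the 6 stressed pups at 14.9 CPM, with the next at 11.5 CPM and the lowest at 9.78 CPM; its gap to the next pup was 0.653 of the whole range. Control female 3 was the highest of the 6 control pups at 25.2 CPM, with the next at 14.0 CPM and the lowest at 10.4 CPM, a gap of 0.759 of the range. Stressed male 3 is the library with the most Yam1 reads, and control female 3 is 1 of the 2 pups with RNA of the upper small intestine; their part in the Fkbp5 values was not tested. Such gaps were looked for in 20 groups of 6 pups, and chance gives about 1 in 20.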

How the results depend on the processing

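No member passed the threshold in any of the 5 comparisons under any alternative run. Over 1209 pairs of a result and an alternative, 1119 kept their direction and their size class, 12 moved and 78 changed sign. The dam number as a replicate block gave members' medians of -0.48 between litters, -0.51 between males and -0.37 between females. That number gives no true pairing of stressed and control dams. For the other comparisons the block was each dam itself, which pairs littermates. Its medians were -0.23 for the difference between the sexes and -0.17 for males against females. Neither block changed the call of a member. The cause of the sign changes was not tested. Fam107a and Zbtb16 reached the lowest read counts of the members, 19 and 31 in a library. The part of depth in their spread was not tested. All results are limited by 3 litters a group.

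Log2 fold changes on the other side of 0, or medians and numbers of members below 0 that moved by more than the spread between replicates, follow. Without both pups of control dam 3, the values between litters were the median -0.095, Fkbp5 0.0051 and Klf9 0.13. That between males was Klf9 0.23. Those between females were the median 0.066, a number below 0 of 3, Tsc22d3 0.13, Zbtb16 0.21, Sgk1 0.080, Cebpd 0.018, Fam107a 0.083 and Klf9 0.052. Those for the difference between the sexes were Per1 0.041 and Zbtb16 -0.79. Those for males against females were Fkbp5 0.15 and Zbtb16 0.61. Without the 3 males rich in Yam1 reads, the values between males were Fkbp5 -0.12, Zbtb16 0.71 and Dusp1 0.28. Those for the difference between the sexes were a number below 0 of 4, Tsc22d3 0.063, Angptl4 0.21 and Dusp1 0.12. Those for males against females were a number below 0 of 4, Tsc22d3 0.13, Per1 0.092, Sgk1 0.070, Cebpd 0.34 and Angptl4 0.27. With limma on log2(FPKM + 1), the value between males was Klf9 0.065. That for males against females was Klf9 -0.013. With limma on log2(FPKM + 0.1), the values between males were Zbtb16 0.093 and Klf9 0.069. That for males against females was Klf9 -0.013. With limma-voom, the values between males were Zbtb16 0.12 and Klf9 0.025. With median-ratio size factors, the value between males was Fkbp5 -0.0025. With DESeq2, the value between males was Fkbp5 -0.0025. With no filter, the value between males was Fkbp5 -0.0049. With the replicate block, the value between males was Klf9 0.028. Leaving out 1 dam or 1 pup at a time, the ranges of results that changed sign or moved are given next. The ranges between litters were Dusp1 -0.022 to 0.12, the median -0.77 to -0.095, Fkbp5 -0.50 to 0.0051 and Klf9 -0.27 to 0.13. The ranges between males were Fkbp5 -0.13 to 0.099, Klf9 -0.14 to 0.23 and Zbtb16 -0.74 to 0.83. The ranges between females were the median -0.75 to 0.070, a number below 0 of 3 to 9, Tsc22d3 -0.85 to 0.14, Zbtb16 -1.56 to 0.21, Sgk1 -0.78 to 0.083, Cebpd -0.43 to 0.021, Fam107a -0.26 to 0.086 and Klf9 -0.43 to 0.056. The ranges for the difference between the sexes were Sgk1 -0.66 to 0.36, Per1 -0.49 to 0.46, the median -0.59 to 0.35, a number below 0 of 4 to 9, Tsc22d3 -0.96 to 0.33, Zbtb16 -0.52 to 1.93 and Klf9 -0.060 to 0.47. The ranges for males against females were Cebpd -0.29 to 0.064, Angptl4 -0.41 to 0.075, Per1 -0.36 to 0.11, Klf9 -0.070 to 0.19, Fkbp5 -0.16 to 0.19, Zbtb16 -0.75 to 0.47, a number below 0 of 3 to 10 and Sgk1 -0.43 to 0.077.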

Other observations

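No gene of the cell type lists passed the test between litters. The log2 fold changes (± SE, stressed minus control litters) of the genes with the smallest unadjusted p in each list were, for the upper small intestine, Fabp1 -9.16 ± 3.01, Gata4 -4.56 ± 1.74 and Ada -1.13 ± 0.51. For the ileal and suckling enterocyte they were Fcgrt -1.12 ± 0.49, Ctsl -0.65 ± 0.33 and Fabp6 1.13 ± 0.92, and for exocrine pancreas Ctrb1 -3.93 ± 1.63, Cela1 -0.83 ± 0.45 and Clps -0.42 ± 0.40. Adipocyte genes gave Cidec -0.30 ± 0.17, Pparg 0.15 ± 0.15 and Retn 0.79 ± 0.84, smooth muscle Acta2 0.12 ± 0.20, Lmod1 -0.07 ± 0.16 and Actg2 0.09 ± 0.27, and fibroblasts Dcn 0.18 ± 0.13, Col6a1 0.16 ± 0.14 and Pdgfra 0.11 ± 0.10. Endothelium gave Cldn5 -0.28 ± 0.11, Cdh5 -0.17 ± 0.08 and Pecam1 -0.20 ± 0.11, enteric neurons and glia Sox10 0.21 ± 0.25 and Tubb3 0.13 ± 0.24, macrophages Csf1r -0.14 ± 0.09, Cx3cr1 0.17 ± 0.15 and C1qb -0.27 ± 0.32, and lymphocytes Cd4 -0.19 ± 0.18, Cd79a 0.47 ± 0.49 and Cd8a 0.44 ± 0.49.

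Without both pups of control dam 3 the values for the upper small intestine were Fabp1 -0.32 ± 0.41, Gata4 -0.19 ± 0.69 and Ada -0.22 ± 0.17, for the ileal and suckling enterocyte Fcgrt -0.26 ± 0.18, Ctsl -0.17 ± 0.17 and Fabp6 0.75 ± 0.91, and for exocrine pancreas Ctrb1 0.41 ± 0.61, Cela1 -0.23 ± 0.31 and Clps 0.23 ± 0.19. Adipocyte genes stood at Cidec -0.09 ± 0.12, Pparg 0.16 ± 0.17 and Retn 1.54 ± 0.84, smooth muscle at Acta2 -0.0014 ± 0.18, Lmod1 -0.14 ± 0.16 and Actg2 -0.12 ± 0.21, and fibroblasts at Dcn 0.18 ± 0.14, Col6a1 0.04 ± 0.11 and Pdgfra 0.05 ± 0.10. Endothelium stood at Cldn5 -0.26 ± 0.12, Cdh5 -0.13 ± 0.09 and Pecam1 -0.10 ± 0.10, enteric neurons and glia at Sox10 0.03 ± 0.21 and Tubb3 -0.04 ± 0.21, macrophages at Csf1r -0.08 ± 0.09, Cx3cr1 0.30 ± 0.13 and C1qb 0.15 ± 0.21, and lymphocytes at Cd4 -0.06 ± 0.17, Cd79a 0.06 ± 0.25 and Cd8a 0.09 ± 0.38.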
